A study of Mus musculus with 12 samples.

Results

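The transcriptional response of the control hippocampus to kainate was described from 6 of the 12 arrays of the series, chosen by their titles: 3 arrays of control mice given kainate and 3 of control mice given saline. The mice were littermates of both sexes, 5 to 6 weeks old, caged singly and handled for 5 days. Kainate (20 mg/kg) was injected into the peritoneum, and hippocampi were taken 1 hour after the injection. Each array holds RNA pooled from 3 animals, so the p-values measure the spread between pools. Which alleles the control mice carry was not given in the labels used here. The other 6 arrays, from mice lacking CREB and CREM, entered the model for its estimate of spread and are otherwise used only as a check.

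Kainate is an agonist of a class of ionotropic glutamate receptors and drives strong excitation of hippocampal neurons. Excitation opens calcium entry and switches on kinase cascades that act on factors already in the nucleus, such as CREB and the serum response factor. The first genes to respond, the immediate early genes, need no new protein, and many encode transcription factors such as those of the EGR family. Others encode effectors that act on the membrane, on signalling or on other enzymes.

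The array covers only part of this programme. Of 11868 probe sets, 3541 (29.8%) reached a log2 value of 4 on 3 or more arrays of the 12 and entered the test, covering 2387 genes by probe sets with a single symbol. Fos, Egr1, Bdnf, Npas4 and Homer1 had no probe set with a single symbol in the annotation used here. Nr4a3, Dusp1, Sgk1 and Trib1 stayed under log2 4 on every control array. All values below are GCRMA expression on the log2 scale, a difference is kainate minus saline, and its error is the standard error from the limma fit.

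The labelled tissue could be checked only in part. Of 10 marker genes of hippocampal neurons, 9 had no such probe set and Zbtb20 was dim (3.53 to 3.60). The astrocyte gene Gfap (10.75 to 12.95) and the microglial gene Laptm5 (9.10 to 10.4) were bright. Cx3cr1 and P2ry12, also microglial, read 6.255 to 7.687 and 4.75 to 4.98. The endothelial genes Slco1c1 and Flt1 read 8.39 to 9.14 and 6.49 to 7.38, and the oligodendrocyte gene Mbp was dim (3.80 to 3.95). The astrocyte gene Slc1a2 ran from 3.87 to 7.73, lowest on the replicate 1 arrays (4.42 after saline and 3.87 after kainate). Of the markers of neighbouring brain regions, Slc17a6 was bright (7.93 to 8.59) and Prkcd dim (1.45 to 1.52), and the part of neighbouring tissue in the results was not tested. In pooled tissue, fewer cells of a type and less RNA per cell cannot be told apart.

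The arrays differed in ways that bear on the results. The replicate 1 arrays of both treatments resembled each other more than the other arrays of their own groups: saline 1 and kainate 1 correlated at 0.991 over the tested probe sets, against 0.962 to 0.968 between replicate 1 and its own group. Replicates 2 and 3 did not pair in this way, since saline 2 correlated best with saline 3 (0.994) and kainate 2 with kainate 3 (0.990). The labels give no reason for this. The 3' to 5' difference of the actin control probe sets was 1.92, 1.82 and 1.74 on saline arrays 1 to 3 and 1.77, 2.27 and 2.20 on kainate arrays 1 to 3. It was therefore higher on kainate arrays 2 and 3 than on the other control arrays, and its part in the results was not tested. Control kainate replicate 3 lay outside the other 5 control arrays by at least 0.5 for 49 tested probe sets, against 9 to 46 for each of the others. Gfap read 12.95 there against 10.75 to 11.59 on the other control arrays, and 11.55 to 13.03 in the mutant groups. Fbll1 read 6.51 there against 7.78 to 8.11, and 6.35 to 7.46 in the mutant groups. The same array was the lowest for Adcyap1r1 (5.50 against 6.56 to 7.69) and the highest for Laptm5 (10.44 against 9.10 to 9.64) and P2ry6 (5.81 against 4.59 to 5.12). Creb1 (4.77 to 5.00) and Crem (4.37 to 4.57) varied little over the control arrays. In the mutant groups these probe sets read 4.83 to 5.11 and 4.51 to 4.83, which is no lower, so they cannot check the genotype labels. The values of mutant kainate replicate 3, which enter the estimate of spread, had an SD of 1.517 over probe sets. On the other arrays of the series this SD was 1.714 to 1.784. Where leaving out control kainate replicate 3 changes a call or moves a difference by over 1.5 times, the value without it is given beside the result.

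Kainate raised 1 probe set past the threshold, that of the inward-rectifier potassium channel gene Kcnj2, and lowered none. Behind it stood a small group of genes with large differences of the same sign in each replicate: Apold1, Sik1, Egr3, Egr4, Gm13889 and Rgs4, of 1.11 to 2.55 log2 units on their brightest probe sets. Over all tested probe sets the median difference was 0.01 and the median absolute difference 0.09, against a median standard error of 0.17. Differences of at least 1 log2 unit were seen in 15 probe sets upward and 9 downward. At an adjusted p under 0.05 (limma, Benjamini-Hochberg), 0.0282% of the tested probe sets were called higher and 0% lower. At an unadjusted p under 0.05, 63 were higher (1.78%) and 95 lower (2.68%). All 3 kainate arrays lay above all 3 saline arrays for 213 probe sets (6.02%) and below them for 164 (4.63%). With 3 arrays a group, some probe sets are free of overlap without any effect of treatment. A lack of overlap is therefore a description here and no test. Probe sets whose identifier carries the suffix f were 14.7% of those tested, 28.6% of those above and 11.0% of those below. The part of probe set type in these counts was not tested. A replicate block raised the calls to 3 probe sets, and with only the 6 control arrays in the fit 6 did. Without control kainate replicate 3 the 12-array fit called 3 (Kcnj2, Sik1 and a probe set of Gm13889 that passed the filter only through kainate arrays), and the fit of the 5 remaining control arrays called 0.

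Kcnj2 encodes a channel that holds neurons near their resting potential. It read 5.91, 6.55 and 6.19 after saline and 9.37, 9.52 and 9.60 after kainate. The groups lay far apart, and the kainate arrays differed less among themselves (SD 0.12) than the saline arrays (SD 0.32). The difference was 3.28 ± 0.24, a 9.71-fold rise (95% interval 2.74 to 3.82; adjusted p = 0.000649, limma). It was 3.46 in replicate 1 and 3.19 in the mean of replicates 2 and 3. Without control kainate replicate 3 it was 3.23 ± 0.28 (adjusted p = 0.00814, limma), and with only the 5 remaining control arrays in the fit the adjusted p was 0.0917. In mutant mice the same difference was 2.14 ± 0.24, and the test of the difference between genotypes gave an unadjusted p of 0.00797 and an adjusted p of 0.973 (limma). No probe set passed that test: 31 had an unadjusted p under 0.05 (0% called after adjustment).

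Egr3 and Egr4, zinc finger transcription factors of the EGR family, were the 2 strongest members of the list of activity-induced transcription factors. Egr3 read 9.41, 9.07 and 9.05 after saline and 10.94, 10.76 and 10.68 after kainate. The 3 pairs were close to each other, at 1.53, 1.69 and 1.63. Its difference of 1.61 ± 0.26 did not pass in the 12-array fit (adjusted p = 0.102, limma) and passed with the replicate block (adjusted p = 0.0113). Of 28 alternatives 10 called it, with adjusted p from 0.00216 to 0.517, and without control kainate replicate 3 the adjusted p was 0.390. A second, dimmer Egr3 probe set gave 1.43 ± 0.62, with pairs that ran from 2.50 in replicate 1 to 0.39 in replicate 3. Egr4 read 4.70, 4.58 and 4.62 after saline and 6.16, 6.58 and 6.02 after kainate. Its groups did not overlap, the mutant arrays ran from 4.19 to 7.55, and the difference of 1.62 ± 0.48 did not pass (adjusted p = 1.00, limma). Of the 28 alternatives 3 called Egr4. Another Egr4 probe set, not tested, was dim on all control arrays (0.58 to 0.64).

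Apold1, an early response gene of endothelium, read 4.46, 4.95 and 4.59 after saline and 6.83, 7.17 and 7.65 after kainate. Every kainate array lay above every saline array, and the difference was 2.55 ± 0.37 (5.86-fold, adjusted p = 0.0678, limma). Apold1 was called by 10 of the 28 alternatives, with adjusted p from 0.00013 to 0.412 (limma). The adjusted p was 0.00603 without mutant kainate replicate 3 and 0.312 without control kainate replicate 3. Sik1, a salt-inducible kinase that acts on the CREB co-activators, read 5.21, 5.36 and 4.59 after saline and 6.91, 7.49 and 6.44 after kainate. Its difference was 1.89 ± 0.27 (3.72-fold; adjusted p = 0.0678). The call changed with the fit, and 6 of the 28 alternatives gave it, with adjusted p from 0.0086 to 0.565. The adjusted p was 0.0212 with the replicate block over 12 arrays and 0.0785 with the block on the control arrays alone, 0.0412 without control kainate replicate 3, 0.107 with replicate 1 against 2 and 3 as a term, and 0.0558 with that term and without that array.

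Gm13889, a predicted gene, was read by 2 probe sets. The first was under log2 4 on all control saline arrays (2.26, 1.75 and 1.81) and read 4.93, 4.48 and 3.64 after kainate. It passed the filter only through kainate arrays, so its difference of 2.41 (2.76 without control kainate replicate 3) is a description with no test. The brighter probe set read 5.96, 5.44 and 5.69 after saline and 7.36, 6.71 and 6.34 after kainate, a difference of 1.11 ± 0.33. On both probe sets kainate array 3 was the lowest of the kainate arrays.

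Rgs4, a protein that shortens signalling by G proteins, read 8.61, 8.89 and 8.85 after saline and 10.01, 9.77 and 10.04 after kainate. The groups did not overlap and both were tight, with SDs of 0.15 and 0.15. Its difference was 1.16 ± 0.21 (2.23-fold; adjusted p = 0.215, limma). In mutant mice it was 0.46 ± 0.21, and the genotype difference did not pass after adjustment (adjusted p = 0.973).

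**Figure D1:**
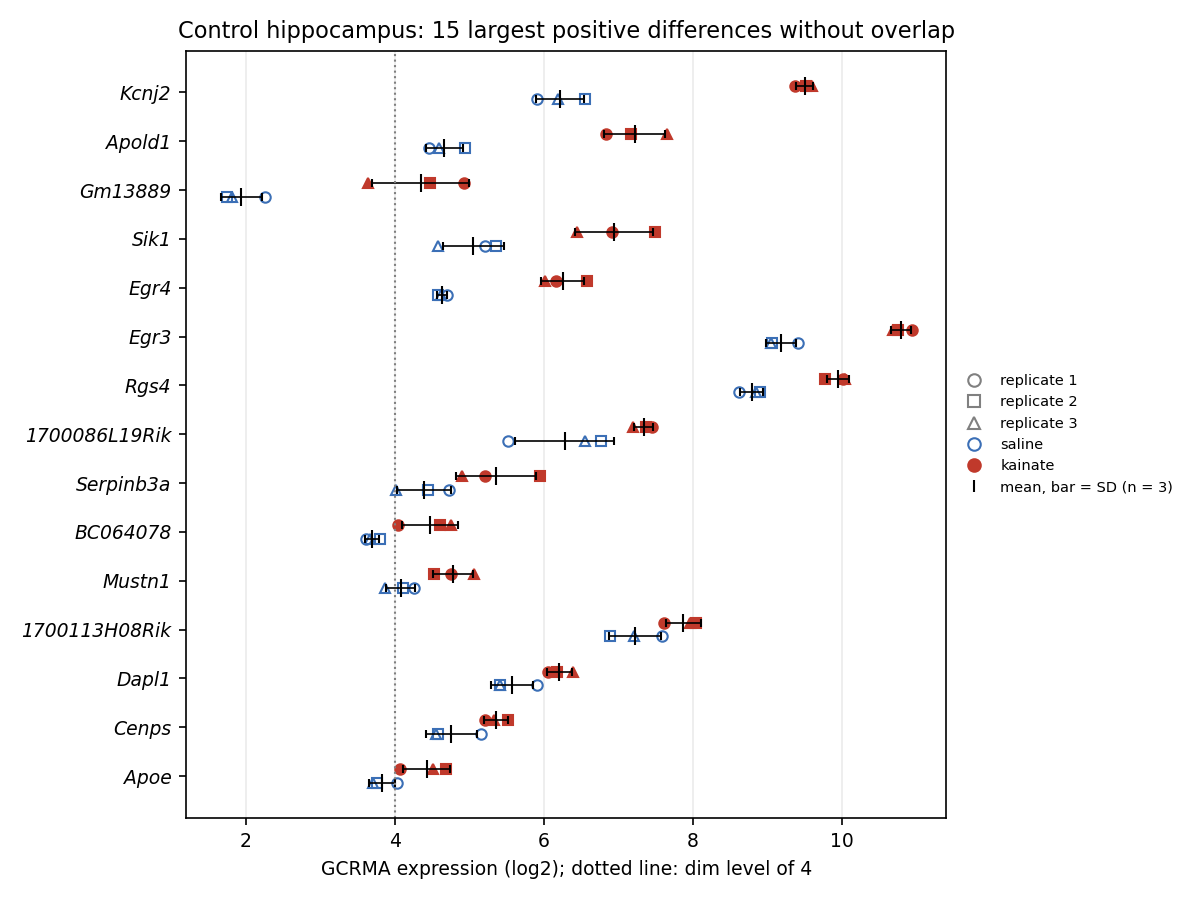
GCRMA expression (log2) on each control array for the 15 genes with the largest positive differences among those with an unadjusted p under 0.05 and no overlap; open blue symbols are saline, filled red symbols kainate, shapes are replicate numbers, and bars are SD around the mean of 3 arrays. Kcnj2 has the largest difference of means (3.28), and for 1700113H08Rik, Apoe and Cenps the gap between the nearest arrays is small.

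The 250 bases before the start sites are shown for the strongest of these genes, because CREB, EGR factors and the serum response factor bind known short motifs. Of 7 genes looked for in the RefSeq table (build GRCm38.p6), 4 were found; Rgs4 was added after its values were seen. Capitals mark matches to the CRE core TGACG or the TATA box TATAAA, on either strand. The windows are chr11:111065914-111066163 (+) for Kcnj2, chr6:134981751-134982000 (+) for Apold1, chr6:85513590-85513839 (-) for Egr4 and chr1:169747643-169747892 (-) for Rgs4, each written 5′ to 3′ toward the gene.
Kcnj2: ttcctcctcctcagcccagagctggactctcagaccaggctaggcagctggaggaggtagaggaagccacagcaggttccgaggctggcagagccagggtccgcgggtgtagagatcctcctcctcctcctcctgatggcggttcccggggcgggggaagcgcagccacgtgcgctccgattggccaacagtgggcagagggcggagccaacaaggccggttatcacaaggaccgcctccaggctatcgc
Apold1: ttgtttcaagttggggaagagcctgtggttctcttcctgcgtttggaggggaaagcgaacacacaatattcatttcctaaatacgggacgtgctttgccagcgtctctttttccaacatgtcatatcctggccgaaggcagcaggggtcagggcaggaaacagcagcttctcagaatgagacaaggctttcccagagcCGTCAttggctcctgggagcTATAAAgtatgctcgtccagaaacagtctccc
Egr4: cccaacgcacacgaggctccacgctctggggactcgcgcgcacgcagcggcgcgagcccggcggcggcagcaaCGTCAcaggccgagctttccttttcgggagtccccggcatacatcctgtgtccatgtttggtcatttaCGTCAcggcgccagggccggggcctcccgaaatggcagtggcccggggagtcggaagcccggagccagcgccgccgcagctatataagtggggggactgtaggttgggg
Rgs4: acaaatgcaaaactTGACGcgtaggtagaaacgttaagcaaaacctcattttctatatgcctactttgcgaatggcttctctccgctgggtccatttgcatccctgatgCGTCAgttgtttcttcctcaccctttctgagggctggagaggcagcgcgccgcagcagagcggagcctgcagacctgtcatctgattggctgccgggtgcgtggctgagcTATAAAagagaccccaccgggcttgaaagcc

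Also searched on both strands were the full CRE TGACGTCA, which holds the core, the AP-1 site TGANTCA, the EGR site GCGNGGGCG, the CArG box and the MEF2 site, and none of these was found in the 4 windows. Apold1 held 1 CRE core, at -52 to -48 from the start, and a TATA box at -32 to -27. Egr4 held 2 CRE cores, at -177 to -173 and -109 to -105. Rgs4 held 2, at -236 to -232 and -141 to -137, and a TATA box at -31 to -26. The Kcnj2 window held no searched motif. Of 32851 such mouse windows, 17.8% hold a CRE core, 1.55% the full CRE, 6.75% the AP-1 site, 4.70% the EGR site, 1.47% the CArG box, 0.508% the MEF2 site and 12.4% the TATA box. A match is a description of letters and not a site.

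Outside these genes, 8 more complete the 15 largest positive differences without overlap, and none passed the threshold. They fall into those seen in every replicate and those seen only in replicates 2 and 3. 1700086L19Rik differed by 1.06 ± 0.39, by 1.93 in replicate 1 and 0.63 in the mean of the others. Serpinb3a, a serine protease inhibitor, differed by 0.96 ± 0.39 (0.49 and 1.20) on 1 probe set and by -0.29 ± 0.22 on another (-0.19 without control kainate replicate 3). Mustn1, a nuclear protein of the musculoskeletal system, differed by 0.70 ± 0.21 (0.49 and 0.81). BC064078 differed by 0.77, but it was under log2 4 on every saline array and passed the filter only through the 3 control kainate arrays, so no test is given for it. For 1700113H08Rik, Dapl1, Cenps and Apoe the replicate 1 difference was 0.03, 0.16, 0.05 and 0.04, against 0.95, 0.87, 0.87 and 0.87 in the mean of replicates 2 and 3. In each of the 4, replicate 1 gave the highest saline value and the lowest kainate value. The Apoe probe set was near the dim level, at 3.70 to 4.69 over the control arrays.

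The differences of replicate 1 correlated little with those of replicates 2 and 3 over the array, while the strongest genes were shared. The correlation of the pair differences across the tested probe sets, which are not independent replicates, was 0.136 between pairs 1 and 2, 0.197 between pairs 1 and 3, and 0.679 between pairs 2 and 3. Pair 1 held 142 probe sets with a difference of at least 0.5 either way, pair 2 held 568 and pair 3 held 519. Among the probe sets without overlap and higher after kainate, the median difference was 0.11 in replicate 1 and 0.30 in the mean of replicates 2 and 3. Among those lower after kainate the medians were -0.15 and -0.41. A test of the kainate effect of replicates 2 and 3 against that of replicate 1, within control mice, called 0% of probe sets (limma, smallest adjusted p = 0.152). Of the 3541 tested, 191 had an unadjusted p under 0.05. The actin 3' to 5' difference was also higher on kainate arrays 2 and 3 (2.27 and 2.20) than on kainate array 1 (1.77), and its part here was not tested.

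**Figure D2:**
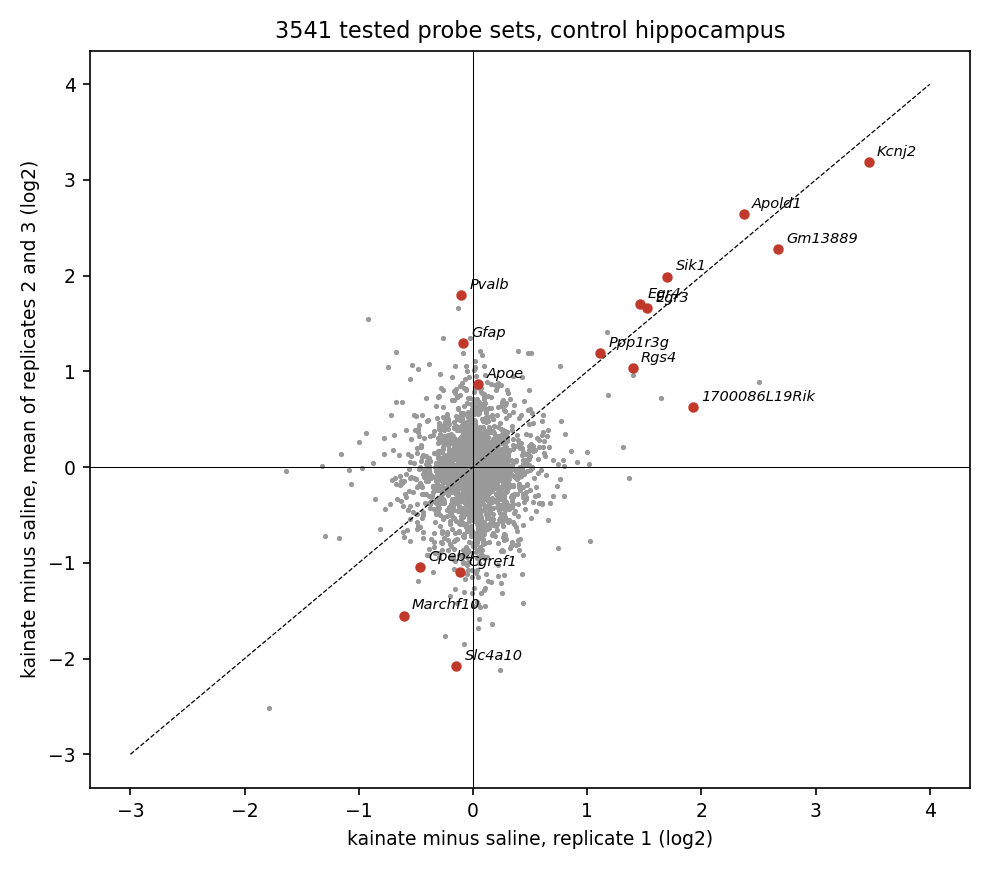
Kainate minus saline (log2) of replicate 1 (x axis) against the mean of replicates 2 and 3 (y axis) for 3541 tested probe sets of control hippocampus; red points are named genes and the dashed line marks equal values. Kcnj2, Apold1, Sik1, Egr3 and Egr4 lie near the line, while Pvalb, Gfap, Apoe, Cgref1 and Slc4a10 lie near 0 on the x axis.

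A rule chosen after the data were seen, that each of the 3 pairs differ by at least 0.5 in 1 direction, picked 13 probe sets higher (0.367%) and 6 lower (0.169%). The 13 were the probe sets of Kcnj2, Apold1, Gm13889 (2 probe sets), Sik1, Egr3, Egr4, Rgs4 and 1700086L19Rik, an unnamed probe set (1.33 ± 0.39), and Ppp1r3g, Gmfb and Pikfyve. Ppp1r3g, a glycogen-targeting subunit of protein phosphatase, differed by 1.16 ± 0.90, Gmfb, a glia maturation factor, by 0.96 ± 0.73, and Pikfyve, a lipid kinase of endosomes, by 0.96 ± 0.79. The mutant arrays, which share the estimate of spread, ran from 3.70 to 7.76 for Ppp1r3g, 3.98 to 7.06 for Gmfb and 2.08 to 5.15 for Pikfyve. The 6 lower were an unnamed probe set (5.90 to 3.63, a difference of -2.28 ± 0.76) and those of Marchf10, Kif21a, Kcne2, Prickle1 and Dnaja4. Kif21a, a kinesin motor, had an error of 1.90 around its difference of -0.88, which was -1.46 without control kainate replicate 3. None of the 6 passed the threshold.

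No gene passed the threshold downward, so the genes below are described by their values. Marchf10, a ubiquitin ligase, read 7.05, 7.59 and 7.75 after saline and 6.44, 6.22 and 6.01 after kainate. Its groups did not overlap, and the difference of -1.24 ± 0.43 was -0.61 in replicate 1 and -1.55 in the mean of the others. Cpeb4, an RNA-binding protein that regulates poly(A) tails, read 4.82, 5.37 and 5.33 after saline and 4.36, 4.30 and 4.32 after kainate (-0.85 ± 0.31). Kctd4, a BTB-domain protein, was read by 4 tested probe sets with differences of -0.85, -0.76, -0.44 and -0.43, of which the first pair had no overlap and the third was -0.16 without control kainate replicate 3. One more probe set, not tested, was dim on all control arrays (3.38 to 3.46). Spin1, a reader of histone methylation, differed by -0.91 ± 0.34 and was the gene of this group with the larger difference in replicate 1 (-1.30 against -0.72).

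In several of these genes replicate 1 showed almost none of the difference. Dzip3, a ubiquitin ligase, gave 0.00 in replicate 1 and -1.15 in the mean of replicates 2 and 3. Pex13, a protein of peroxisomal import, gave -0.01 and -1.07, and Cgref1, a secreted growth regulator, -0.11 and -1.10. Pla2g3, Zfp551, Prl7d1, Rabif, Ppil4, Sfxn2 and Peak1 differed by -0.60 to -0.76, with groups that did not overlap and no call after adjustment. Pla2g3, Zfp551 and Prl7d1 were under log2 4 on every control kainate array, and Zfp551 passed the filter only through saline arrays, so its difference is a description with no test. Peak1 was -0.38 without control kainate replicate 3. Syt11, a synaptotagmin, differed by -0.71 ± 0.31 on 1 probe set and by -0.03 ± 0.21 on another (0.01 without that array). Slc4a10, a bicarbonate transporter of neurons, had a larger difference (-1.43 ± 0.72), of -0.15 in replicate 1 and -2.08 in the mean of the others, and its groups did not overlap.

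**Figure D3:**
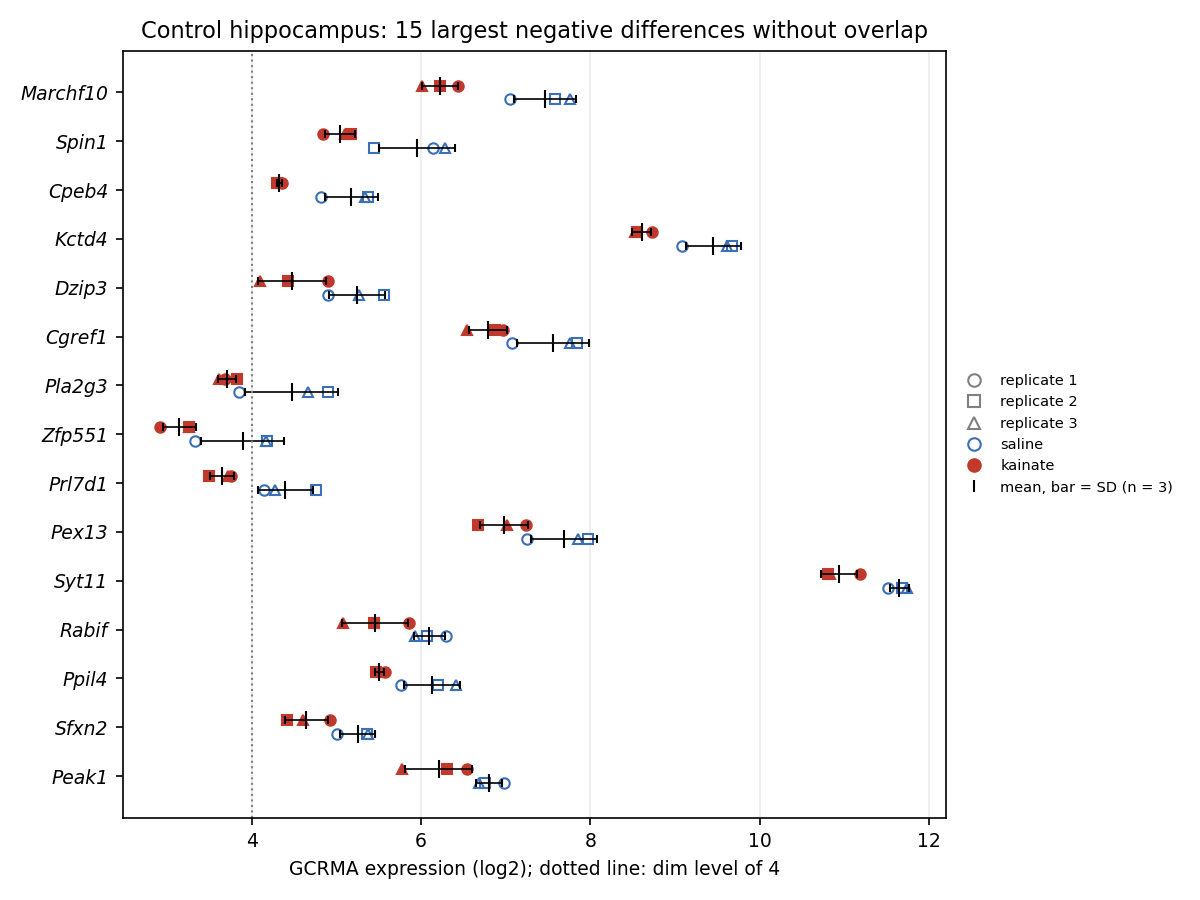
GCRMA expression (log2) on each control array for the 15 genes with the largest negative differences among those with an unadjusted p under 0.05 and no overlap; open blue symbols are saline, filled red symbols kainate, shapes are replicate numbers, and bars are SD around the mean of 3 arrays. In Dzip3, Pex13 and Cgref1 the saline value of replicate 1 (circle) lies beside the kainate values.

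Among gene lists, the activity-induced effectors held most of the large positive differences. The lists were chosen with earlier results of these data known, so this describes the list and is no independent result. Over the 2387 genes tested, each by its brightest probe set, 148 lay above without overlap (6.20%), 129 below (5.40%), and the median difference was 0.00. Of 17 tested effectors, 6 lay above without overlap (Kcnj2, Apold1, Sik1, Rgs4, Gm13889 and the survival factor Mcl1, 0.43 ± 0.33) and 2 below (Cpeb4 and Cgref1). Kcnj2 alone passed the test, and the list's median was 0.08. Syt4 (0.37 ± 0.29) and Penk (0.29 ± 0.31, and 0.47 without control kainate replicate 3) overlapped. Another 15 effectors on the array were below the filter.

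Of 10 tested activity-induced transcription factors, 3 lay above without overlap (Egr3, Egr4 and Rorb, 0.32 ± 0.44) and 1 below (Elk1, a partner of the serum response factor, -0.49 ± 0.45). None passed, and the median was 0.07. Jun differed by 0.03 ± 0.06 (0.06 without control kainate replicate 3). Of 11 feedback regulators of MAP kinase signalling, none lay above and Peak1 lay below (-0.60 ± 0.26), with Dusp3 at 0.34 ± 0.17 (0.20 without control kainate replicate 3). Of 6 tested genes encoding CREB family proteins or co-activators, none lay above and Crtc3 lay below (-0.33 ± 0.15), while Crtc1 differed by 0.40 ± 0.22. Among 4 salt-inducible and AMP-activated kinases only Sik1 had groups that did not overlap, with Sik3 at -0.01 ± 0.30 (0.10 without that array) and Brsk2 at 0.11 ± 0.26.

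Kcnj2 stood alone among the channels. Of 28 tested voltage-gated and inward-rectifier channel genes, the 27 others lay between -0.70 and 0.35, Cacnb4 lay below without overlap (-0.32 ± 0.21), and the median was -0.06. Of 17 genes of glutamate receptors and the postsynaptic density, 3 lay above (Begain, Grin3a and Grm7, by 0.55, 0.30 and 0.11, the last 0.07 without control kainate replicate 3), none below, and none passed. The scaffold Anks1b differed on its brightest probe set by -0.62 ± 0.27, with pairs of -0.27, -0.36 and -1.24. It differed by -0.36 ± 0.25 without control kainate replicate 3. Other tested Anks1b probe sets gave -1.23 and -0.83 in the fit with array weights, whose estimation did not converge. They were called lower there and in no other fit. In the same list the kinase Camk2d differed by -0.75 ± 0.41, by 0.16 in replicate 1 and -1.20 in the mean of the others. Of 6 genes of the inhibitory synapse none was free of overlap, and the median was -0.10. Of 30 presynaptic genes, 2 lay above (Syn1, 0.42 ± 0.20, and Slc17a7, 0.27 ± 0.29) and 3 below (Syn2, -0.36 ± 0.11, Ppfia2, -0.27 ± 0.22, and Sv2b, -0.21 ± 0.08), and none passed. Dimmer probe sets of Syn2 gave 0.26 and 0.01.

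Astrocyte markers differed mainly in replicates 2 and 3, and 2 microglial genes mainly in replicate 3. Of 10 astrocyte genes, Apoe (0.59 ± 0.19) and Pla2g7 (0.22 ± 0.09) lay above without overlap and none passed. The Apoe probe set was near the dim level of log2 4, at 3.70 to 4.03 after saline and 4.07 to 4.69 after kainate. The list's median was 0.21 over all pairs, 0.00 in replicate 1, 0.39 in the mean of replicates 2 and 3, and 0.12 without control kainate replicate 3. Gfap, the filament protein of astrocytes, differed by 0.84 ± 0.49 with overlapping groups, and by 0.36 ± 0.45 without that array. Slc1a2 differed by 0.43 with overlapping groups, and by -0.25 without that array. Of 7 microglial genes, Laptm5 (0.62 ± 0.40) and P2ry6 (0.54 ± 0.33) lay above without overlap, with pairs of 0.31, 0.21 and 1.34 and of 0.14, 0.28 and 1.22, and both were smaller without that array (0.34 and 0.30). Pvalb, a marker of a class of interneurons, differed by 1.16 ± 0.68, by -0.10 in replicate 1 and 1.80 in the mean of the others, with overlapping groups. The part of these cell types in the other differences was not tested.

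Larger gene families gave counts in both directions, to be read beside 6.20% above and 5.40% below over all tested genes. No family was tested as a set. Of 80 tested ubiquitin ligases, conjugating enzymes and proteases, 2 lay above and 8 below, among them Hectd2 (-0.80 ± 0.38) and Trim23 (-0.65 ± 0.32). Of 86 protein kinases and phosphatases 7 lay above (8.14%) and 4 below (4.65%). Of 40 genes of motor proteins and the cytoskeleton 7 lay above (17.5%), led by the kinesin light chain Klc1 (0.52 ± 0.33), and 4 below. Of 60 zinc finger genes 3 lay above (5.0%) and 5 below (8.33%). The 5 include Zfp551, which passed the filter only through saline arrays, so its place below is no test. No member of these families passed the threshold. Of 9 genes of oxidative phosphorylation only Cox7a2 was free of overlap (-0.51 ± 0.30), and of 8 heat shock genes Dnajb2 lay above (0.40 ± 0.32) and Hspa4l below (-0.42 ± 0.25).

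The remaining lists gave few genes without overlap and no call. Of 13 genes marking dentate granule cells none was free of overlap. The peptide receptor gene Adcyap1r1 differed by -0.70, and by -0.22 without control kainate replicate 3, and Pitpnm2 by 0.51 and 0.53. Of 10 genes marking pyramidal cells of CA1 and CA3, Sv2b alone lay below and none above, and the median was 0.00. Of 7 endothelial, pericyte and blood genes none was free of overlap, with the laminin Lama4 at 0.65 and the receptor Flt1 at 0.31. Apold1, known from endothelium, thus differed by more than any tested member of that list. Of 7 oligodendrocyte genes Elovl7 lay below (-0.37) and none above. Of 12 genes of sterol and fatty acid synthesis 1 lay above and 1 below, and of 13 ribosomal and translation genes 1 lay above (the elongation factor Eef2, 0.45) and 1 below (Eif1ax, -0.35). Of 5 glucocorticoid-responsive genes and 5 cytokine and innate immune genes none was free of overlap, and the inhibitor of NF-kappaB Nfkbia, a member of both lists, differed by 0.13 (0.08 without control kainate replicate 3). Of 6 apoptosis and p53 target genes Mcl1 lay above and none below, with Xiap at -0.85 and overlapping groups.

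**Figure D4:**
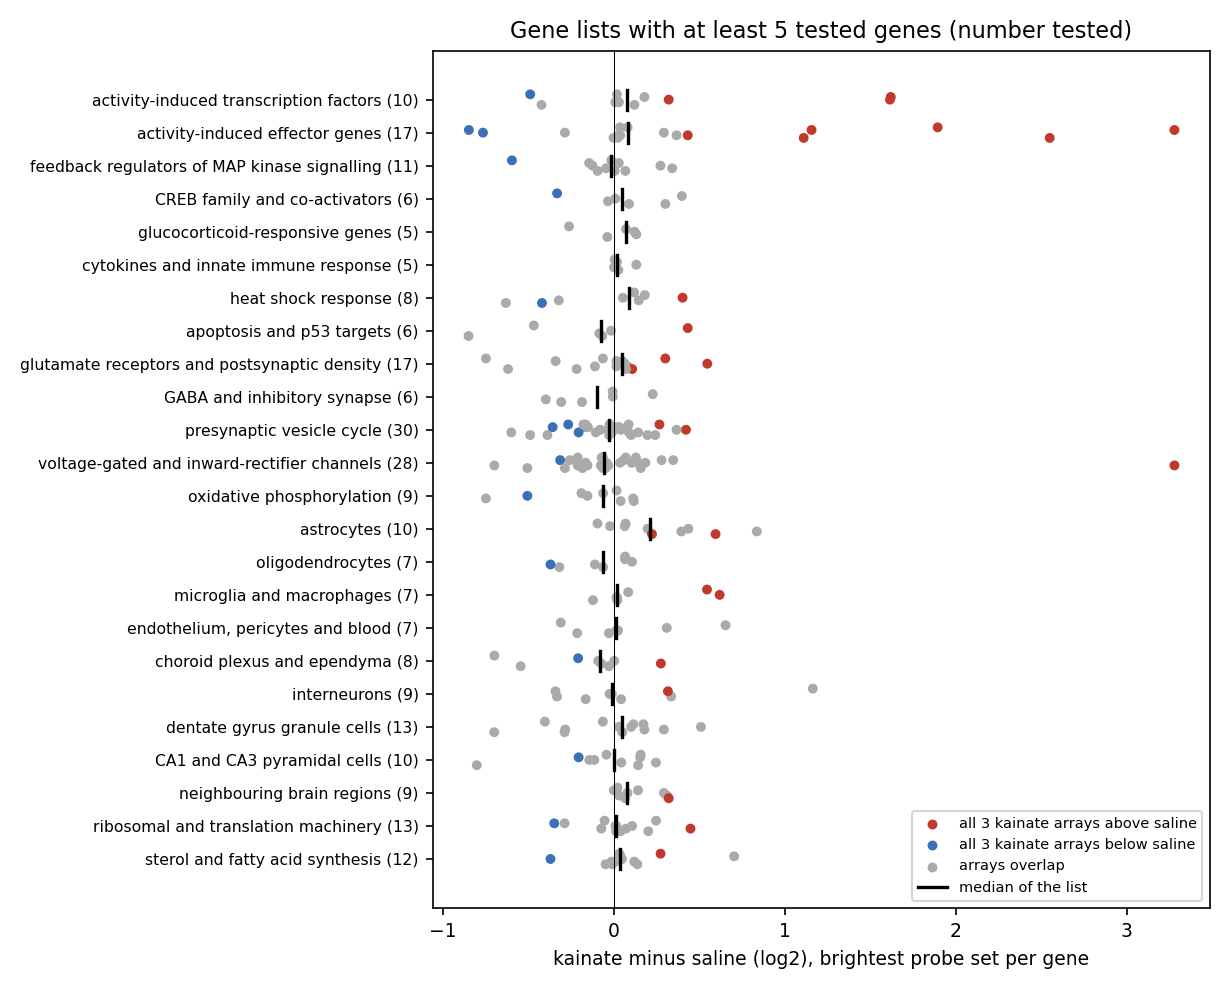
Kainate minus saline (log2) of each tested gene, by its brightest probe set, in the gene lists with at least 5 tested genes; red and blue points are genes whose kainate arrays all lie above or below the saline arrays, grey points overlap, and black ticks are medians. Most points above 1 belong to the activity-induced lists, which were chosen with earlier results of these data known. The list medians lie between -0.10 and 0.21.

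Leaving out control kainate replicate 3 moved some of the strongest genes up and others down. Sik1 went from 1.89 to 2.15 ± 0.25 and passed (adjusted p = 0.0412, limma). Gm13889 went from 2.41 to 2.76 on its dim probe set and from 1.11 to 1.34 on the brighter. Apold1 went from 2.55 to 2.34 ± 0.40 (adjusted p = 0.312, limma), Egr3 from 1.61 to 1.67 ± 0.31 (its second probe set from 1.43 to 1.96 ± 0.61), Egr4 from 1.62 to 1.74 ± 0.56 and Rgs4 from 1.16 to 1.11 ± 0.25. Of the lower genes, Marchf10 went from -1.24 to -1.13 ± 0.50, Cpeb4 stayed at -0.85 and Cgref1 went from -0.77 to -0.64 ± 0.25. Fbll1 went from -0.64 to -0.21 ± 0.27. With replicate 1 against replicates 2 and 3 as a term and that array left out, Kcnj2 (adjusted p = 0.0243) and Egr3 (1.58 ± 0.16, adjusted p = 0.0292) passed.

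**Figure D5:**
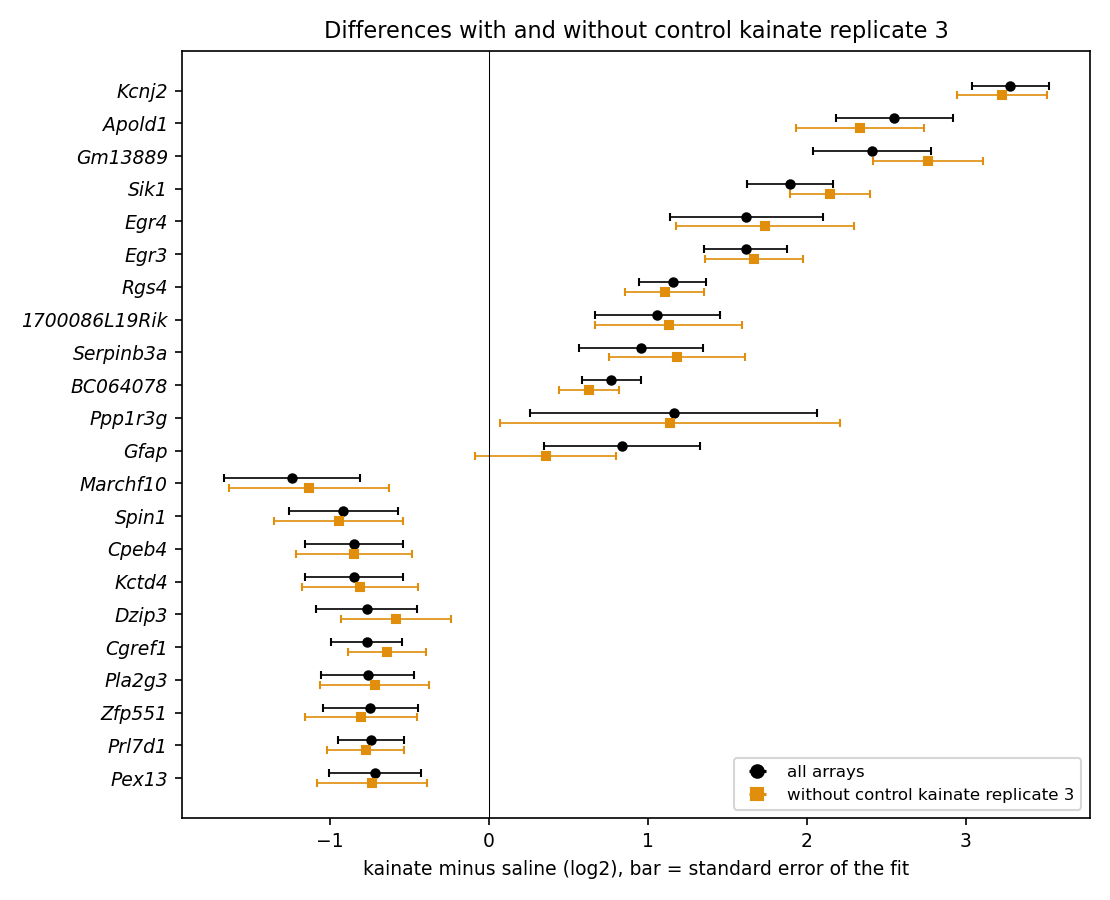
Kainate minus saline (log2) with its standard error for 22 genes, from the fit of all 12 arrays (black circles) and from the fit without control kainate replicate 3 (orange squares). Kcnj2 stays at 3.28 and 3.23, and Gfap goes from 0.84 to 0.36.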

How the data were processed

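Hippocampal RNA was measured on array C of the Affymetrix murine genome U74 set. The deposited values are log2 expression per probe set, made by the authors with GCRMA in R 2.4.1, per the submitters' processing notes; the GCRMA version is not given in the sources used here. GCRMA adjusts background by probe sequence and normalizes across arrays, so dim values have compressed differences. The 66 control probe sets were left out, and probe sets with log2 of at least 4 on at least 3 of 12 arrays were tested. Symbols came from the platform annotation: a single symbol stood beside 7717 of 11868 probe sets, more than 1 beside 150 and none beside 4001, and only the first kind were named. The limma model (version 3.58.1, R 4.3.3) held 4 group means over 12 arrays (8 residual degrees of freedom), with Benjamini-Hochberg adjustment over 3541 probe sets; it was tested on simulated data. With 3 arrays a group, their number limits the precision.

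Named genes were those past the threshold, the 15 largest differences each way with an unadjusted p under 0.05, no overlap and 1 symbol, and up to 3 members of each of 28 gene lists and 15 families by absolute difference; list members beyond these were chosen after their values were seen. The members and lists were chosen with earlier results of these data known. Of 1656 list entries 1639 matched by symbol and 16 by synonym. Same-numbered control arrays deviated together from their group means (correlations 0.627, 0.383 and 0.458), and the labels do not state a pairing. Same-numbered mutant arrays, which enter the replicate block over 12 arrays too, did so less evenly (0.479, 0.0448 and -0.0779). The deviations of the 3 arrays of a group cancel out, so the 3 correlations of a genotype are not independent. A deviation shared by the replicate 1 arrays alone can raise the other correlations. The values therefore do not show 3 separate pairs, which the replicate block assumes. In all, 28 alternatives were run, 3 of them added after the data were seen.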

Additional observations from a re-analysis of the deposited data

Results flagged for a closer look

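Arc and Amigo3, of the activity-induced lists, lay under the filter on dim signal and were not tested, yet a control kainate array exceeded log2 4 for each while no control saline array did. Arc, a cytoskeletal regulator of synapses, read 2.92, 2.89 and 2.87 after saline and 3.97, 2.98 and 4.72 after kainate. Amigo3, an adhesion protein, read 3.75, 3.75 and 3.75 after saline and 4.57, 3.91 and 3.72 after kainate.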

How the results depend on the processing

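Against the 1 probe set called, all alternatives called Kcnj2 except the fit of the control arrays without control kainate replicate 3, which called 0 probe sets (156 at an unadjusted p under 0.05); the Kcnj2 difference ran from 3.13 to 3.45. The count was 6 with only the 6 control arrays, 3 with the replicate block (Kcnj2, Egr3 and Sik1) and 2 with that block on the control arrays alone. With replicate 1 against 2 and 3 as a term it was 2, 2 without control kainate 3, 5 without mutant kainate 3, 7 without both, and 3 on the control arrays alone. Leaving out 1 array at a time gave 1 to 4, with 3 without control kainate replicate 3, 4 without mutant kainate replicate 1 and 3 without mutant kainate replicate 3. A dim level of 5 gave 3, a second quantile normalization 2 and median centring 5, while no filter, a filter on the control arrays and a trend with robust moderation gave 1. Array weights gave 113, of which 43 were higher, but their estimation did not converge. The weights ran from 0.057 (mutant kainate 3) to 28.75 (mutant kainate 2). The dim Gm13889 probe set, which passed the filter only through kainate arrays, is counted in 4 of these settings. They are the fits without control kainate 3, without mutant kainate 1, with the replicate term and without both kainate 3 arrays, and with array weights. BC064078, which also passed only through kainate arrays, is counted with array weights. The part of these probe sets in the counts is no test.

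Of 146 probe sets that the naming rule or the rule on pairs gave, 17 changed sign under at least 1 of the 28 alternatives, most of them with differences near 0. Array weights turned Asns (-0.05065), Crem (-0.04753), Il1rn (-0.01996) and Stat3 (-0.01508). The control arrays without kainate 3 turned Eif2s3x (0.0113), Gm2115 (0.1435), Plin4 (-0.09194), Prkag2 (-0.03279), Slc1a2 (-0.2519), Sstr4 (0.0541) and the second Syt11 probe set (0.009714), which a second quantile normalization also turned (0.02006). With the replicate term and control kainate 3 left out, Gm2115 (0.08744), Plin4 (-0.1042), Prkag2 (-0.06081) and Sstr4 (0.03677) turned, and with mutant kainate 3 left out too they gave 0.09052, -0.1006, -0.05777 and 0.04595. With 1 array left out at a time the ranges were -0.05496 to 0.08985 for Asns, -0.09469 to 0.02305 for Creb1, -0.04479 to 0.03661 for Crem, -0.07879 to 0.1184 for Edem1, -0.1674 to 0.1401 for Eif2s3x, -0.09838 to 0.5204 for Gabrd and -0.8133 to 0.1435 for Gm2115. They were -0.02044 to 0.05015 for Il1rn, -0.08381 to 0.02142 for Kdm5c, -1.966 to 0.3458 for Kif21a, -0.09194 to 0.2396 for Plin4, -0.03279 to 0.0727 for Prkag2 and -0.3144 to 1.675 for Slc1a2. They were -1.081 to 0.1006 for Sostdc1, -0.5772 to 0.0541 for Sstr4, -0.01023 to 0.03221 for Stat3 and -0.103 to 0.02541 for the second Syt11 probe set. The cause of these moves was not tested. Probe sets near log2 4 have signal close to background, which limits what their differences show.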
